A study of Mus musculus with 55 samples.

Results

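The 43 genes described here encode the machinery of DNA replication and of the S phase of the cell cycle. They were taken by symbol from an RNA-seq table of mouse liver that lists 24478 gene symbols, and all 43 were found. Each gene is represented by the transcript row with its highest mean, which was the only row for 25 of them. The study sorted 10 cell populations by fluorescence from livers of C57B/L6 mice, either normal or after partial hepatectomy (PH), the surgical removal of part of the liver. The 55 libraries comprised 27 from normal and 28 from PH livers. The populations, as named in the labels, with the number of normal and of PH libraries, were hepatocytes (HC, 4 and 4), non progenitor ducts (NPD, 2 and 2), Kupffer cells (KC, 2 and 3), Thy1 cells (2 and 2), blood cells (2 and 2), endothelial cells (EC, 2 and 3), liver sinusoidal endothelial cells (LSEC, 3 and 5), biliary epithelial cells (BEC, 4 and 2), clonal biliary epithelial cells (cBEC, 4 and 2) and hepatic stellate cells (HSC, 2 and 3). The sources used here give no time after surgery, age, sex, batch or surface marker used for sorting, and no sham-operated group is labelled. Nothing in the labels says that replicates came from separate animals, so the p-values measure the spread between these libraries, which may be technical. Values are FPKM, counts of sequenced fragments scaled to transcript length and to the mapped fragments of the library, and the depth behind them is unknown.

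Replication begins when the origin recognition complex (Orc1 and Orc6 here), Cdc6 and Cdt1 load the ring-shaped MCM helicase (Mcm2 to Mcm7) onto DNA in G1, a step called licensing. Cdc45, the GINS complex (Gins1, Gins2) and Mcm10 then convert the loaded ring into a moving helicase, polymerase alpha with primase (Pola1, Pola2, Prim1, Prim2) lays down primers, and polymerases epsilon and delta (Pole, Pole2, Pold1) extend them on the sliding clamp PCNA, which replication factor C (Rfc1 to Rfc5) loads. Rpa2 coats single-stranded DNA, Fen1 and Lig1 finish the lagging strand, and Rrm1, Rrm2, Tyms, Tk1 and Dut supply deoxynucleotides. Chaf1a and Chaf1b deposit histones on new DNA, Uhrf1 and Dnmt1 copy DNA methylation onto it, and Slbp binds the messenger RNAs of replication-dependent histones. Most of these genes are known targets of E2F transcription factors, of which E2f1 (an activator) and E2f8 (a repressor) were among the 43. The adult liver is largely quiescent, and after partial hepatectomy hepatocytes are known to re-enter the cell cycle ahead of most other liver cells.

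Because many of these genes are known E2F targets, the promoters in RefSeq (build GRCm38.p6, 250 bases before to 50 after each start site) were searched on both strands for the 4 E2F-type words TTTCCCGC, TTTGGCGC, TTTCGCGC and TTTGCCGC, which can overlap one another. Of the 36 genes of the 43 that had a promoter in the table, 14 held at least 1 word (38.89%), against 2.6% of all 27025 genes and 2.26% of all 32851 promoters of that length. The same search found a word in 16 of 42 other replication genes and in 1 of 17 mitosis genes. Mcm4, Rfc2, Prim2, Pole, Gins1, Gins2 and Tipin were not in the promoter table. The stretches around the words upstream of the start are shown for 5 genes of licensing, the role with most calls in hepatocytes, and for Uhrf1, the gene with the largest difference in NPD; capitals mark the words, as read on the gene's strand.
Mcm5 (chr8:75109331-75109392, plus strand): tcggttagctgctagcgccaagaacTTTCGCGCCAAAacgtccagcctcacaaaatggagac
Mcm6 (chr1:128359720-128359840, minus strand): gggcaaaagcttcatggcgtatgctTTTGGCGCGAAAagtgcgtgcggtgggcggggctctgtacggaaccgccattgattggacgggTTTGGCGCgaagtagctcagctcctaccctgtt
Mcm7 (chr5:138172016-138172073, minus strand): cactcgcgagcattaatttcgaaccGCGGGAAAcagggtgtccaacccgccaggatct
Cdc6 (chr11:98907988-98908045, plus strand): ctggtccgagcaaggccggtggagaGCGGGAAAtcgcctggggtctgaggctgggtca
Orc1 (chr4:108579402-108579453, plus strand): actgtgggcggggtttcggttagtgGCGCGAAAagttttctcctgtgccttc
Uhrf1 (chr17:56304103-56304160, plus strand): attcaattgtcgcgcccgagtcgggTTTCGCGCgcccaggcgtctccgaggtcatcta
In Mcm5 and in the first stretch of Mcm6, 2 words on opposite strands overlapped in 1 run of capitals. The other genes with a word upstream were Rfc3, Dnmt1 and Pola1, and in Mcm3, Lig1, Pold1, Cdt1 and Pole2 the words lay only past the start site. A match describes the letters of the reference and is not a measured binding site.

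Several facts about the libraries bear on every value below. The markers of the sorted populations were checked, and larger departures from the labels are given here or with the population. All 8 hepatocyte markers were above 0 in every HC library, and 5 to 8 of the 8 were listed at 0 in every other library. The columns of the HC libraries hold 2 decimals and all others up to 9, and of the 100 symbols most abundant in normal HC, 43 to 79 were listed at 0 in each library of the other populations and none in HC. Whether HC columns were made in another way cannot be told apart from the cell type, so levels in HC and in other populations are set side by side with that limit, and a 0 may be a failed estimate. In normal NPD, the summed portal fibroblast and mesothelial markers (5417 and 5228 FPKM) lay above the summed duct markers (3897 and 2638 FPKM). In PH NPD they were 3502 and 4041 FPKM against 4828 and 4003 FPKM of duct markers, so this balance differed between the groups compared. The duct markers summed to 10264 FPKM or more in every cBEC and BEC library. Of the Thy1 libraries, the second normal one summed to 5207 FPKM of duct markers against 3114 of portal fibroblast and mesothelial markers, and the second PH one to 2872 FPKM of endothelial and 2447 of sinusoidal endothelial markers against 1050. The 2 libraries labelled PH blood carried Kupffer markers at 13226 and 22736 FPKM summed, against 729 and 1116 in normal blood. EC libraries carried sinusoidal endothelial markers at 2341 to 7848 FPKM summed, the first normal one (7848) above the third normal LSEC library (6810.5). The second normal HSC library summed to 1063 FPKM of Kupffer and 1273 of sinusoidal endothelial markers, against 83.1 and 227 in the first. The first PH HC library and the third PH KC library stand apart from their groups and are treated below, and the HSC libraries differ among themselves. The first PH cBEC library carries the tag normal in another field and was kept as titled.

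In normal liver the 43 genes were highest in blood cells and lowest in hepatocytes. The median gene had a mean of 19.6 FPKM in normal blood, followed by 10.0 in BEC, 9.28 in KC, 7.83 in cBEC, 5.95 in Thy1 cells, 5.88 in LSEC, 5.30 in NPD, 4.97 in EC, 4.87 in HSC and 2.29 in HC. The mean log2(FPKM + 1) over the 43 genes of single libraries spanned 2.76 to 3.37 in BEC, 3.27 to 3.32 in KC, 2.82 to 3.14 in cBEC, 2.51 to 3.02 in Thy1 and 2.67 to 2.88 in LSEC. It spanned 2.33 to 2.61 in NPD, 2.47 to 2.58 in EC and 1.71 to 2.79 in HSC. KC thus lay above all of these populations but BEC. BEC, cBEC, Thy1 and LSEC overlapped one another, as did Thy1, NPD, EC and HSC, and HSC also overlapped LSEC and BEC. Blood was apart from the rest at 4.22 and 4.27, and HC lay at 1.70 to 1.83, near the lower HSC library at 1.71. Normal blood had the highest mean for 31 of the 43 genes, and for 25 of these both blood libraries lay above every other normal library. Mcm2, a subunit of the helicase ring, had a mean of 48.6 FPKM in blood, 15.3 in the next population, BEC, and 1.57 ± 0.40 FPKM (SD, n = 4) in HC. HC had the lowest mean for 26 of the 43 genes. A level in a sorted bulk library cannot tell fewer cycling cells from less RNA per cell.

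A few genes departed from that order. Mcm10, which helps the helicase start, was highest in normal HC at 18.0, 16, 13.8 and 15.8 FPKM, all above every other normal library, while it was listed at 0 in normal BEC. Orc6, a subunit of the origin recognition complex, was highest in normal EC with a mean of 41.1 FPKM, and both EC libraries lay above every other normal library. Pola2, the regulatory subunit of polymerase alpha, was highest in LSEC (35.3 FPKM) and EC (33.9 FPKM), whose libraries overlapped. Tk1, the thymidine kinase that salvages thymidine, was highest in KC at 26.8 FPKM and next in HC at 18.0. Lig1, the ligase that joins lagging-strand fragments, was highest in cBEC (22.3 FPKM) and BEC (21.1 FPKM), which overlapped. Mcm10, Orc6 and Pola2 also followed the other genes least: across the 20 group means of log2(FPKM + 1), the correlation with the median of the 43 genes was 0.39 for Mcm10, 0.39 for Orc6 and 0.44 for Pola2, against 0.96 for Mcm5 and 0.96 for Uhrf1. These are descriptions over groups that share libraries and genes, with no test.

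**Figure D1:**
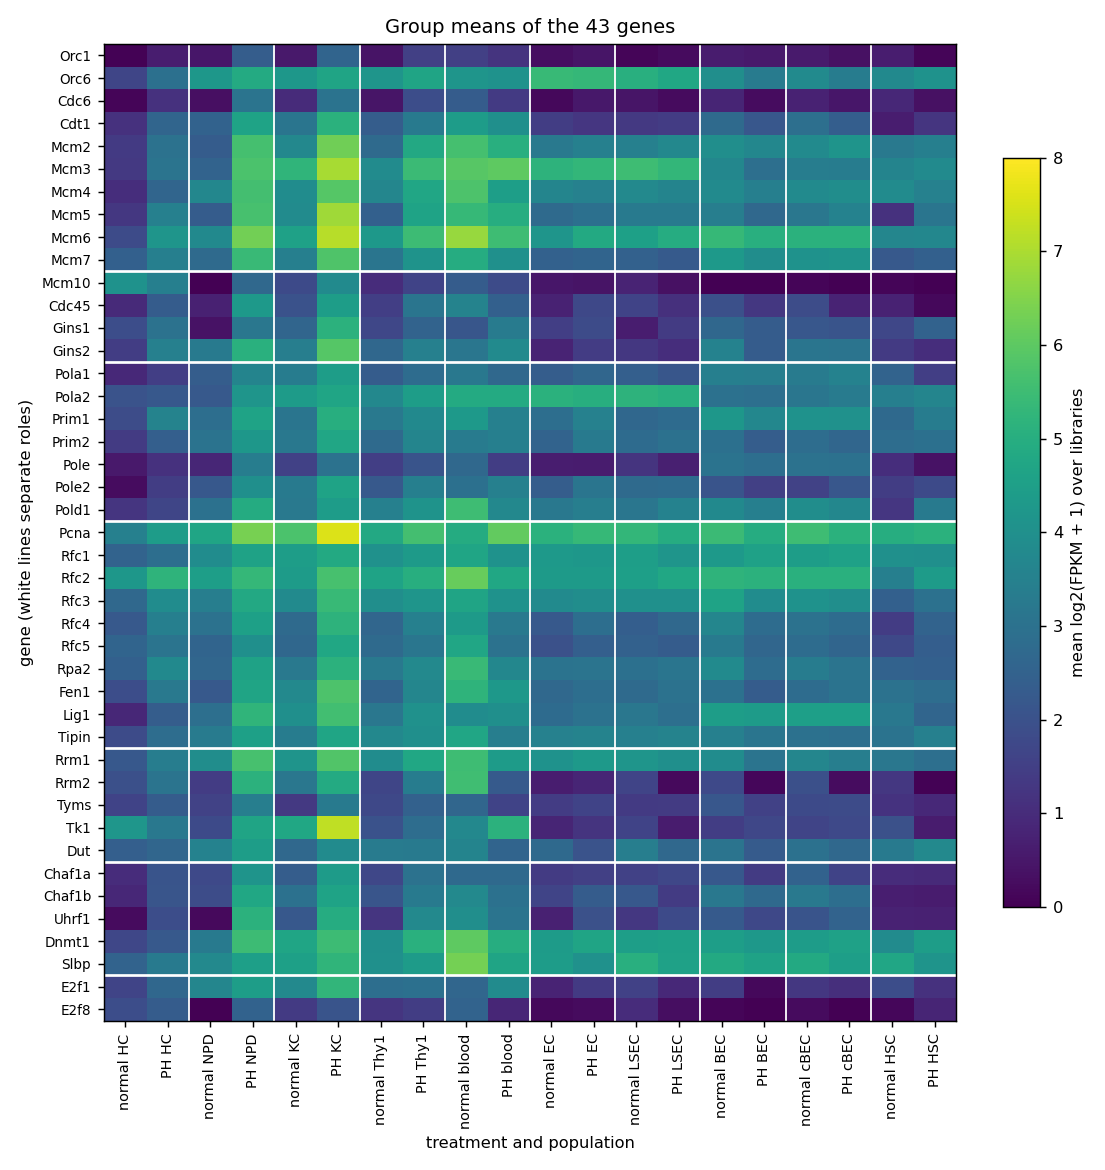
Heat map of the 43 genes (rows, in order of role) in the 20 groups of treatment and population (columns); colour gives the mean of log2(FPKM + 1) over the libraries of a group. Normal HC is the darkest column for most genes, Mcm10 being an exception, and the PH columns of NPD and KC are brighter than their normal columns.

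After PH the order changed. KC had the highest median gene at 41.8 FPKM, followed by NPD at 24.1, blood at 12.5, Thy1 cells at 11.9, HC at 7.79, cBEC at 7.37, EC at 6.55, BEC at 6.09, LSEC at 6.06 and HSC at 5.08. KC had the highest mean for 38 of the 43 genes, but for 1 of them only did all KC libraries lie above every other PH library, because the third PH KC library was far lower than the first and the second. The lowest mean was in HSC for 15 genes, in BEC for 9, in HC for 8 and in LSEC for 8. In their mean over the genes on the log2(FPKM + 1) scale, the KC libraries (3.60 to 5.78) spanned those of NPD (4.46 to 4.69) and overlapped those of blood (3.23 to 3.98) and Thy1 (3.45 to 3.89), which overlapped each other. HC (2.0 to 4.03) overlapped every population but NPD, and LSEC (2.35 to 2.93) overlapped cBEC, EC, BEC and HSC, so the order of these medians is not larger than the spread of the libraries.

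**Figure D2:**
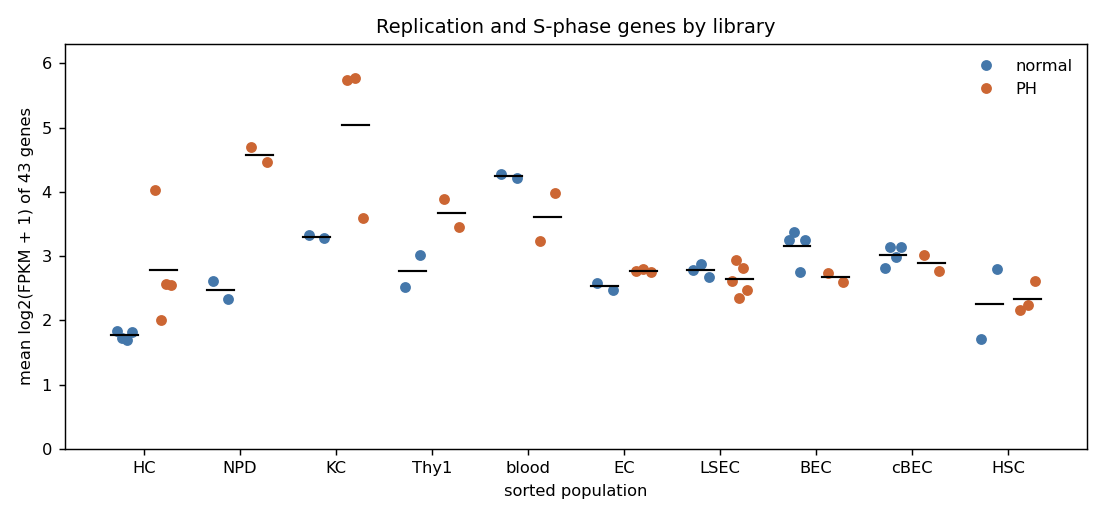
Each point is a library; the vertical axis is the mean log2(FPKM + 1) of the 43 genes, the horizontal axis the sorted population, and the bar the group mean. PH libraries of NPD (4.46 and 4.69) lie above the normal ones (2.33 and 2.61), and in HC and KC a PH library stands apart from the others.

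In hepatocytes 6 of the 10 genes of licensing and helicase loading and the ligase gene Lig1 rose after PH. Differences are on the log2(FPKM + 1) scale, which understates the change of genes with low values, and a gene is called where limma's adjusted p, taken over all genes tested, is under 0.05. Of the 43 genes, 38 had enough signal for the test and 7 were called, all higher: Mcm2, Mcm3, Mcm4, Mcm5, Mcm6, Cdt1 and Lig1. Of all 10029 genes tested in HC, 6.19% were called in either direction, 1.78% as higher and 4.41% as lower. The median difference of the 38 genes was 1.09, against -0.07 over all genes tested. Another 11 genes had every PH library above every normal library without being called, which makes 18 in that order of the 38 (4.99% of all genes tested). Pole, Pole2, Cdc6, Uhrf1 and Orc1 were below the filter of 1 FPKM in at least 4 libraries.

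Of the genes called in HC, 4 lie, in the table's mm9 coordinates, at chr8:77633408-77652338 on the plus strand (Mcm5), chr1:130228152-130256282 on the minus strand (Mcm6), chr6:88833468-88848774 on the minus strand (Mcm2) and chr8:125091915-125097030 on the plus strand (Cdt1). By role, 6 of the 8 licensing genes tested were called in HC, 1 of 10 clamp and fork factors, and none of the origin-firing, polymerase, nucleotide, chromatin or E2F genes. Mcm5 had 2.11, 1.12, 1.26 and 1.55 FPKM in the 4 normal libraries and 24.8, 3.68, 11.1 and 9.77 FPKM in the 4 PH libraries. The groups did not overlap, the second PH library was the lowest of its group and the first the highest, and the difference was 2.17 ± 0.43 (SE, adjusted p = 0.0181). Mcm6 had 2.12, 2.86, 2.83 and 2.52 FPKM in normal and 66.7, 6.87, 12.7 and 13.6 FPKM in PH libraries, a difference of 2.34 ± 0.55 (adjusted p = 0.0342). Mcm2 had 1.71, 1.09, 1.47 and 2.03 FPKM in normal and 12.1, 3.50, 8.63 and 6.41 FPKM in PH libraries, with a difference of 1.66 ± 0.31 (adjusted p = 0.0135). The same order of PH libraries, first high and second low, held for both. Mcm3 had 1.51, 1.81, 1.64 and 1.19 FPKM in normal and 17.1, 3.12, 9.35 and 5.74 FPKM in PH libraries (difference 1.75, adjusted p = 0.0288). Mcm4 went from 0.5, 1.5, 1.54 and 0.86 FPKM to 13.1, 2.57, 3.73 and 4.68 FPKM (1.56, adjusted p = 0.0463). Both groups of Mcm4 and of Mcm3 were separate, and Mcm7, the remaining ring subunit, also had all 4 PH libraries (5.27 to 18.5 FPKM) above the normal ones (4.08 to 5 FPKM) but was not called (1.01, adjusted p = 0.0877).

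Cdt1, the loading factor that is destroyed once S phase starts, had 1.32, 1.1, 1 and 1.45 FPKM in normal HC and 7.28, 1.82, 7.27 and 6.14 FPKM in PH HC, a difference of 1.46 ± 0.34 (adjusted p = 0.0316). Its first PH library and the third were alike, unlike those of the MCM genes. Lig1 had 0.90, 0.92, 0.97 and 0.67 FPKM in normal and 10.1, 2.21, 3.16 and 3.77 FPKM in PH libraries (1.47 ± 0.34, adjusted p = 0.0333). As all its normal values were under 1 FPKM, Lig1 passed the filter only through the PH libraries and could be called only as higher. Cdc6, Cdt1's partner in loading, was below the filter, at 0.03 to 0.15 FPKM in normal and 4.86, 0.25, 0.93 and 0.73 FPKM in PH libraries. Uhrf1, which guides Dnmt1 to new DNA, was likewise untested, at 0.09 to 0.27 FPKM in normal and 8.45, 0.64, 2.44 and 2.63 FPKM in PH libraries. For Cdc6 and Uhrf1 every PH library lay above every normal one. Gins2, a subunit of the active helicase, missed the threshold at a difference of 2.02 (adjusted p = 0.0611).

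For several genes of the later steps, 1 library lay far above the rest. Pcna, the sliding clamp, had 9.84, 10.1, 10.4 and 10.6 FPKM in normal HC and 93.6, 11.6, 11.6 and 12.8 FPKM in PH HC (0.92 ± 0.58, adjusted p = 0.402). Rrm2, the S-phase subunit of ribonucleotide reductase, had 3.06, 2.62, 2.86 and 2.84 FPKM in normal and 43.3, 3.44, 4.86 and 3.32 FPKM in PH libraries (1.13, adjusted p = 0.356). Slbp had 4.45 to 5.25 FPKM in normal and 27.1, 4.91, 6.08 and 6.38 FPKM in PH libraries (0.73, adjusted p = 0.379). In all of these the first PH library was far above the other 3, which lay near normal. E2f1 had 1.40 to 2.92 FPKM in normal and 12.8, 2.21, 5.74 and 4.57 FPKM in PH libraries (1.03, adjusted p = 0.163). E2f8 had 2.26 to 2.99 FPKM in normal and 4.3, 5, 3.72 and 3.1 FPKM in PH libraries (0.41, adjusted p = 0.246). Dnmt1 had 1.82 to 3 FPKM in normal and 5.63, 3, 3.51 and 3.22 FPKM in PH libraries (0.54, adjusted p = 0.191).

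Mcm10 and Tk1 ran the other way in HC, neither of them called. Tk1 had 21.6, 14.7, 13.3 and 22.4 FPKM in normal and 20.2, 5.90, 6.43 and 5.33 FPKM in PH libraries (-1.02, adjusted p = 0.156), the first PH library lying among the normal ones and the other 3 below them. Mcm10 had 18.0, 16, 13.8 and 15.8 FPKM in normal and 12.3, 5.01, 11.8 and 13.1 FPKM in PH libraries (-0.62, adjusted p = 0.239), all PH values below the normal ones. Tk1 shares exon bases with Afmid on the opposite strand, at most 83 between any pair of exons. The mean of Afmid in HC was 81.7 FPKM in normal and 9.32 FPKM in PH libraries. The use of strand in counting is not given in the sources used here, so reads from the shared bases cannot be assigned to Tk1 or Afmid. How far they bear on the value of Tk1 was not tested. In all, 12 of the 43 genes share exon bases with another annotated gene, among them Lig1, Mcm7, Cdc45, Fen1, Gins2, Orc6 and Chaf1a, and their values carry the same limit.

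The first PH HC library had 41 of the 43 genes above every normal library, with a median difference from the normal mean of 2.37, and the second had 22, with 0.25. The third had 36 and the fourth 35. Mitosis genes averaged 3.72 on the log2(FPKM + 1) scale in the first PH library and 0.62 to 0.69 in the other 3, against 0.78 to 1.01 in normal HC. The second PH library carried Kupffer markers at 147 FPKM summed (0.18 to 13.2 in normal HC); the part of such cells in the result was not tested. Without the first PH library 9 genes were called (background 6.79%): Mcm2, Mcm3, Mcm4, Mcm5, Mcm6, Gins2, Lig1 and Prim1 higher and Tk1 lower at -1.43 (adjusted p = 0.00798), while Cdt1 lost its call (adjusted p = 0.0692) and the median difference was 0.64. Without the second PH library 13 genes were called (3.99% of all genes tested), without the third 3 (4.78%) and without the fourth 1 (2.96%). Leaving out any single normal library gave 1 or 2 (3.18% to 3.72% of all genes). The median differences in these fits were 1.04 to 1.36.

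The normal HC libraries also fell into pairs that the labels do not explain. Normal libraries 1 and 4 correlated at 0.99 and so did 2 and 3, while pairs across these lay at 0.96 to 0.97, and their sums of FPKM differed in the same way. PH libraries 3 and 4 correlated at 0.99, but PH 1 and 2 at 0.96, below PH 2 and 4 at 0.98. By correlation, PH 1 and 2 thus form no pair. Over the rows kept, PH 1 (738910, lower side) summed close to normal 1 (743090, higher side), so the sides are not set at the same sum in both groups. Gene by gene, however, the difference between the higher and the lower side correlated at 0.68 between normal and PH libraries. The division thus went largely the same way in both groups. The division was made after the values were seen. Its higher side leaves out PH 1 and 2, which were less alike than PH 3 and 4, so its count does not show how wide the response is. Normal 1 and 4 with PH 3 and 4, the libraries of higher sum in each group, gave 20 calls among the 43 genes, 19 higher and Tk1 lower (-1.74; median 0.75; 17.1% of all genes tested were called). Among these were Mcm2 to Mcm7, Cdt1, Cdc45, Gins2, Orc6, Prim1, Lig1, Fen1, Chaf1a, Chaf1b, Uhrf1 and E2f1. The remaining libraries, normal 2 and 3 with PH 1 and 2, gave none by limma (1.43% of all genes tested were called), with 7 of 37 genes at an unadjusted p under 0.05 and a median difference of 1.40. With a term for this division in the fit of all 8 libraries, 13 genes were called, all higher (21.8% of all genes).

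**Figure D3:**
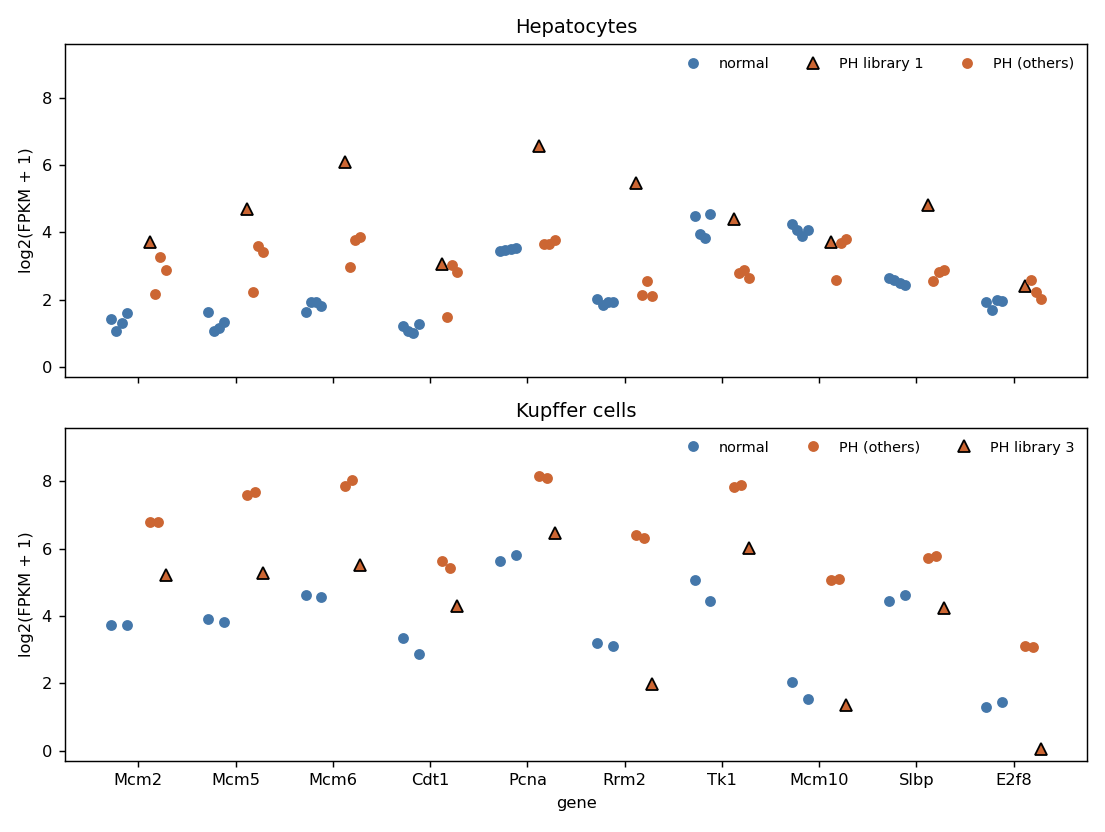
Values of 10 genes in each HC library (upper panel) and KC library (lower panel) on a log2(FPKM + 1) axis, normal beside PH; triangles mark the PH library that stands apart. In HC the first PH library is above the other PH libraries for Pcna, Rrm2 and Slbp, and in KC the third is below the other PH libraries for every gene shown.

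In NPD 36 of the 43 genes were called higher after PH and none lower, where 15.2% of all 13024 genes tested were called, 9.65% higher and 5.51% lower. The median difference was 1.94, against 0.09 over all genes, and both PH libraries lay above both normal libraries for all 43 genes (36.9% of all genes tested). Every role took part: 9 of 10 licensing genes, 3 of 4 origin-firing genes, 7 of 7 polymerase and primase genes, 7 of 10 clamp and fork factors, 5 of 5 nucleotide genes, 4 of 5 chromatin genes and 1 of 2 E2F genes were called. The 7 genes without a call were Orc6, Gins2, Rfc2, Rfc4, Rfc5, Slbp and E2f1, with differences from 0.66 to 1.8. Some called genes, among them Uhrf1, Cdc6, Mcm10 and E2f8, were under 1 FPKM in both normal libraries. They passed the filter only through the PH libraries, so they could be called only as higher.

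Uhrf1 (mm9 chr17:56442760-56462909, plus strand) had 0 and 0.337 FPKM in normal NPD and 38.6 and 31.1 FPKM in PH NPD, the largest difference among the 43 genes at 4.95 ± 0.26 (adjusted p = 0.00631). Rrm2 had 3.10 and 0.717 FPKM in normal and 43.6 and 26.5 FPKM in PH libraries (3.72, adjusted p = 0.0152). Cdc45, which joins the helicase to the fork, had 0.210 and 1.26 FPKM in normal and 19.1 and 18.0 FPKM in PH libraries (3.56, adjusted p = 0.00984). All 3 genes had both PH libraries far above both normal ones.
Mcm5 had 5.89 and 2.65 FPKM in normal and 54.1 and 46.4 FPKM in PH libraries (3.35, adjusted p = 0.00984). Mcm2 had 4.08 and 3.96 FPKM in normal and 49.0 and 49.4 FPKM in PH libraries (3.32 ± 0.16, adjusted p = 0.00631). Mcm3 had 5.60 and 4.27 FPKM in normal and 54.8 and 50.4 FPKM in PH libraries (3.18, adjusted p = 0.00637). The ring subunits thus stood at 39.1 to 80.5 FPKM after PH and at 2.65 to 15.8 FPKM before.

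Licensing partners behaved alike in NPD: Cdt1 had 5.28 and 4.11 FPKM in normal and 24.8 and 23.3 FPKM in PH libraries (2.15), and Cdc6 had 0.383 and 0.143 FPKM in normal and 7.70 and 7.22 FPKM in PH libraries (2.75). Pcna went from 32.1 and 19.8 to 89.0 and 75.3 FPKM (1.66, adjusted p = 0.0212). Tk1 went from 4.05 and 1.38 to 28.2 and 21.4 FPKM (2.89, adjusted p = 0.0171), opposite in sign to HC. Dnmt1, the maintenance DNA methyltransferase, had 7.33 and 10.8 FPKM in normal and 48.1 and 40.7 FPKM in PH libraries (2.19). Mcm10 was listed at 0 in both normal libraries and had 6.13 and 4.93 FPKM after PH (adjusted p = 0.0105), and E2f8 was listed at 0 in both and had 6.17 and 3.60 FPKM after PH (adjusted p = 0.0163). E2f1, its activating relative, had 14.5 and 9.26 FPKM in normal and 21.4 and 20.6 FPKM in PH libraries (0.80, adjusted p = 0.0887). Slbp had 15.5 and 10.0 FPKM in normal and 25 and 19.3 FPKM in PH libraries (0.77, adjusted p = 0.113).

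Leaving out any NPD library leaves a lone library in a group, so these fits are given by their effect only. The median difference was 2.10 and 1.98 without the first or the second normal library, with the spread taken from the PH libraries alone. It was 1.92 and 2.03 without the first or the second PH library. There the 2 normal libraries alone give the spread and the lone PH library is assumed to vary like them. The calls turned with the library left out. Of the marker lists, 7 of 8 Kupffer markers were called lower after PH in NPD (146 and 326 FPKM summed in normal, 10.3 and 14.4 in PH), 2 of 8 portal fibroblast and mesothelial markers were called lower, and none of 8 duct markers was called. Their part in the result was not tested.

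In Kupffer cells, the resident macrophages of the liver, 11 of the 43 genes were called higher after PH and none lower, in a comparison where 36.8% of all 11835 genes were called, 16.7% higher and 20.1% lower. The 11 were Orc1, Cdt1, Mcm2, Mcm3, Mcm4, Mcm5, Gins1, Gins2, Pcna, Fen1 and Tk1. All 43 differences were positive, with a median of 1.85 against -0.04 over all genes, and 29 genes had every PH library above both normal ones (28.9% of all genes tested). The first and second PH libraries had all 43 genes above both normal libraries, and the third had 29 above and 11 below.

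Mcm5 had 14.2 and 13.1 FPKM in normal KC and 194, 204 and 38.1 FPKM in PH KC (2.99 ± 0.75, adjusted p = 0.0301). Gins1 had 4.13 and 6.14 FPKM in normal and 58.8, 54.1 and 12.7 FPKM in PH libraries (2.55, adjusted p = 0.0353). Mcm2 had 12.2 and 12.2 FPKM in normal and 110, 109 and 36.1 FPKM in PH libraries (2.54, adjusted p = 0.0153). The third PH library was the lowest of its group each time and still above normal. Tk1 had 32.7 and 21.0 FPKM in normal and 228, 234 and 63.7 FPKM in PH libraries (2.48, adjusted p = 0.0288). Gins2 had 9.23 and 10.1 FPKM in normal and 96.3, 102 and 19.3 FPKM in PH libraries (2.46, adjusted p = 0.0491). Orc1, the largest subunit of the origin recognition complex, had 0.497 and 0.412 FPKM in normal and 7.63, 8.45 and 1.67 FPKM in PH libraries (2.05, adjusted p = 0.0424). In these genes too the third PH library was the lowest of its group and above normal. Orc1 was under 1 FPKM in both normal libraries, so it passed the filter only through the PH libraries and could be called only as higher. Cdt1 had 9.25 and 6.32 FPKM in normal and 48.3, 42.0 and 18.8 FPKM in PH libraries (2.01), and Pcna had 48.8 and 55.5 FPKM in normal and 288, 276 and 86.6 FPKM in PH libraries (1.85).

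For other genes the third PH KC library was at or below normal. Rrm2 had 8.21 and 7.66 FPKM in normal and 83.2, 78.9 and 2.94 FPKM in PH libraries (1.74, adjusted p = 0.37). Mcm10 had 3.12 and 1.88 FPKM in normal and 32.3, 33.2 and 1.55 FPKM in PH libraries (adjusted p = 0.232). E2f8 had 1.45 and 1.74 FPKM in normal and 7.62, 7.41 and 0.0451 FPKM in PH libraries (adjusted p = 0.601). In that library these 3 genes were below both normal libraries, whereas Mcm2, Mcm5, Cdt1 and Pcna were above them. Slbp (20.8 and 23.5 in normal, 51.5, 53.7 and 17.7 FPKM in PH) and Dnmt1 (27.0 and 23.0 in normal, 59.2, 56.4 and 25 FPKM in PH) were near normal there as well. Uhrf1 had 3.63 and 3.58 FPKM in normal and 60.2, 60.7 and 7.05 FPKM in PH libraries (2.76, adjusted p = 0.0687), Cdc6 had 1.01 and 0.968 FPKM in normal and 13.9, 14.5 and 1.40 FPKM in PH libraries (2.05, adjusted p = 0.117), and E2f1 had 13.5 and 11.7 FPKM in normal and 54.7, 51.5 and 19.1 FPKM in PH libraries (1.52, adjusted p = 0.0534).

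Mitosis genes followed the same division in KC, averaging 3.94 and 3.94 on the log2(FPKM + 1) scale in the first and second PH libraries, 0.92 in the third and 2.30 and 2.44 in normal KC. Without the third PH library all 43 genes were called higher (58.4% of all genes called, 30.6% higher; median difference 2.50). Without the first PH library 2 were called (21% of all genes tested) and without the second 1 (23.9%). Leaving out either normal library left a lone normal one, so those fits are given by their effect only. The median differences without either normal library were 1.78 and 1.76, with the spread taken from the PH libraries alone, and 1.47 and 1.42 without the first or the second PH library. The third PH KC library also differs in its labels, which lack the cell type tag. Sinusoidal endothelial markers fell with PH in this comparison, 8 of 8 being called lower (4085 and 5465 FPKM summed in normal, 341 to 615 in PH), and 4 of 8 Kupffer markers were called higher (18366 and 20148 FPKM summed in normal, 36534 to 37796 in PH). Their part in the result was not tested.

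In the libraries labelled blood, 21 of the 43 genes were called, 2 higher and 19 lower, where 64% of all 12819 genes were called, 24.3% higher and 39.7% lower. The median difference was -0.80 against -0.31 over all genes, with 26 genes having both PH libraries below the normal ones (52% of all genes) and 5 above (33.2%). Markers moved with the label: 8 of 8 lymphocyte markers were called lower (3749 and 3868 FPKM summed in normal, 57.4 and 128 in PH), 7 of 8 neutrophil and monocyte markers lower (3947 and 4707 FPKM, then 906 and 2206) and 8 of 8 Kupffer and 8 of 8 sinusoidal endothelial markers higher (the latter from 829 and 922 to 3036 and 6636 FPKM). The values therefore compare libraries of different cell content as well as of different treatment, which cannot be told apart. Rrm2 had 52.6 and 40.4 FPKM in normal and 2.38 and 5.80 FPKM in PH libraries (-3.30 ± 0.38, adjusted p = 0.00256), the largest fall among the 43 genes. Pold1, the catalytic subunit of polymerase delta, had 46.3 and 43.8 FPKM in normal and 9.97 and 15.0 FPKM in PH libraries (-1.80, adjusted p = 0.00314). Rfc5, a clamp loader subunit, had 26.7 and 24.9 FPKM in normal and 5.50 and 8.94 FPKM in PH libraries (-1.74, adjusted p = 0.00449). Rpa2 had 42.4 and 41.5 FPKM in normal and 9.41 and 15.2 FPKM in PH libraries (-1.73, adjusted p = 0.00448). All 4 genes were separate between the groups and lower in the first PH library than in the second.

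Slbp fell from 77.4 and 80.1 to 24.7 and 24.4 FPKM in the blood libraries (-1.64, adjusted p = 0.00122), E2f8 from 5.46 and 4.39 to 0.602 and 1.06 FPKM (-1.70) and Dnmt1 from 65.4 and 60.7 to 25.2 and 38.1 FPKM (-1.0). Pcna rose from 29.1 and 29.2 to 56.1 and 77.3 FPKM (1.15, adjusted p = 0.00737) and Tk1 from 13.1 and 11.4 to 21.4 and 54.0 FPKM (1.41, adjusted p = 0.0448). Both were among the 4 genes whose highest normal mean was in KC, and the others, E2f1 and Pole2, were not called higher in blood. The part of Kupffer cells in these values was not tested. Mcm2 (-0.59), Mcm5 (-0.37), Cdt1 (-0.43), Cdc6 (-0.97), Uhrf1 (-0.88) and E2f1 (1.22) were not called. Without the first or the second normal blood library the median differences were -0.76 and -0.89. They were -0.34 without the first PH library and -1.19 without the second. Each of these fits leaves a lone library in a group, so they are given by their effect only.

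In Thy1 cells the differences pointed upward without passing the test. Limma called none of the 43 genes and 1 of all 13389 (0.00747%), with 20 of the 43 at an unadjusted p under 0.05. Of the 43 differences 42 were positive, with a median of 0.86 against -0.06 over all genes, and 29 genes had both PH libraries above both normal ones (24.5% of all genes). Mcm2 had 4.63 and 7.34 FPKM in normal and 28.5 and 26.3 FPKM in PH libraries (2.05 ± 0.29, adjusted p = 0.13), Mcm5 had 3.34 and 6 FPKM in normal and 25.9 and 21.8 FPKM in PH libraries (2.17, adjusted p = 0.13), and Uhrf1 had 0.861 and 1.93 FPKM in normal and 15.4 and 10.3 FPKM in PH libraries (2.54, adjusted p = 0.13). These 3 genes were separate between the groups. The summed portal fibroblast and mesothelial markers were 3114 and 3716 FPKM in normal and 1050 and 2098 FPKM in PH Thy1 libraries, and the endothelial markers 1073 and 1461 FPKM in normal and 1506 and 2872 FPKM in PH libraries. None of either 8 was called, and their part was not tested. Cdc6 (1.43), Rrm2 (1.70), Dnmt1 (1.09), Cdt1 (0.95) and Pcna (0.78) also had separate groups, while Tk1 (0.86), Slbp (0.40), E2f8 (0.21) and E2f1 (0.06) overlapped. Dut, which removes dUTP, was the single gene below 0, at -0.02, with 8.71 and 9.41 FPKM in normal and 11.8 and 6.63 FPKM in PH libraries.

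In sinusoidal endothelial cells, which line the liver's capillaries, 1 of 39 genes tested was called, and it was lower: Rrm2 had 2.35, 1.11 and 3.30 FPKM in normal and 0.149, 0.0899, 0.217, 0.138 and 0.180 FPKM in PH libraries (-1.44 ± 0.28, adjusted p = 0.0138). All 5 PH values were below the normal ones. They were also under 1 FPKM, so Rrm2 passed the filter only through the normal libraries and could be called only as lower. Of all 11501 genes 8.46% were called, 4.15% higher and 4.31% lower, and the median difference of the 39 genes was -0.13. Neutrophil and monocyte markers summed to 8.40, 47.2 and 2.97 FPKM in normal and 0.16 to 2.18 FPKM in PH LSEC, and 3 of 8 sinusoidal endothelial markers were called lower. Rrm2 was highest in blood among the normal populations. Within normal LSEC, the library with 47.2 FPKM of these neutrophil and monocyte markers had the lowest Rrm2 and that with 2.97 FPKM the highest. The part of such cells was not tested. Without the first normal library the call was lost (2.37% of all genes called). Without the third normal or the second PH library 2 genes were called (8.06% and 11.4% of all genes). Mcm6 was the member closest to a rise, with 24.3, 24.5 and 18.2 FPKM in normal and 29.0, 31.6, 25.1, 38.3 and 27.2 FPKM in PH libraries (0.42, adjusted p = 0.17). It was the single gene with every PH library above normal (8.27% of all genes), and Rrm2 and Chaf1b were the 2 with every PH library below (10.5%). Mcm2 (0.25), Mcm5 (0.04), Cdt1 (0.07), Uhrf1 (0.50) and Dnmt1 (0.07) had small positive differences, and Pcna (-0.34), Slbp (-0.47), E2f1 (-0.63) and Tk1 (-0.99) negative ones, all with overlapping libraries. Cdc6 and E2f8 were not tested.

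None of the 43 genes was called by limma in EC, BEC, cBEC or HSC. In EC 37 genes were tested, 4 had an unadjusted p under 0.05 and 0.0249% of all genes were called. Every PH library lay above normal for 10 genes (16.6% of all genes) and below it for 1 (12.9%). Uhrf1 had 0.531 and 0.802 FPKM in normal and 2.84, 3.18 and 2.83 FPKM in PH EC (1.25, adjusted p = 0.266), with separate groups. On the lower side the smallest p was that of Dut, with 7.41 and 4.37 FPKM in normal and 3.62, 3.12 and 2.70 FPKM in PH libraries (-0.70, adjusted p = 0.469). Differences in EC were 0.26 for Mcm2, 0.19 for Mcm5, 0.25 for Pcna, -0.20 for Cdt1, 0.37 for Tk1, 0.55 for E2f1, 0.28 for Dnmt1 and -0.38 for Slbp.

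In BEC 39 genes were tested, 13 had an unadjusted p under 0.05, 1.81% of all genes were called (0.233% higher and 1.57% lower) and the median difference was -0.54 against -0.12 over all genes. Both PH libraries lay below normal for 13 genes (22% of all genes) and above it for 1, Rfc1 (5.29%; 14 to 22.6 FPKM in normal, 22.6 and 23 in PH, 0.27). Rpa2 had 15.1, 15.9, 10.3 and 12.5 FPKM in normal and 6.45 and 5.86 FPKM in PH BEC (-1.0, adjusted p = 0.0596). Rrm2 had 2.67, 3.97, 1.04 and 2.64 FPKM in normal and 0.220 and 0 FPKM in PH libraries (-1.63, adjusted p = 0.067). Both genes had separate groups. Without the third normal library, whose mean over the 43 genes was the lowest of its group (2.76), 5 genes were called (2.39% of all genes): E2f1, Mcm3, Rfc3, Rpa2 and Rrm2. Kupffer markers (7 of 8) and sinusoidal endothelial markers (6 of 8) were called lower after PH in BEC, and their part was not tested. In the same comparison Mcm2 (-0.24), Mcm5 (-0.72), Pcna (-0.49), Cdt1 (-0.60), Uhrf1 (-0.54), Dnmt1 (-0.20) and Slbp (-0.26) were lower without a call, and Tk1 stood at 0.24.

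In cBEC 39 genes were tested, 1 had an unadjusted p under 0.05 and 0.0681% of all genes were called (0.0454% higher and 0.0227% lower). That gene was Rrm2, with 2.91, 2.29, 1.84 and 5.14 FPKM in normal and 0.293 and 0.127 FPKM in PH cBEC (-1.68, adjusted p = 0.33). Mcm2, with 12.1, 13.8, 12.9 and 13.7 FPKM in normal and 18.6 and 15.1 FPKM in PH libraries, had the smallest p on the higher side (0.33, adjusted p = 0.553). Mcm2, Mcm5 (0.39), Uhrf1 (0.48) and Dnmt1 (0.17) were the 4 genes with both PH libraries above the normal ones (6.62% of all genes), Rrm2, Pcna (-0.41) and Slbp (-0.37) the 3 below (14.4%), and Cdt1 (-0.52), Tk1 (0.14) and E2f1 (-0.24) overlapped. In HSC 36 genes were tested, 1 had an unadjusted p under 0.05 and 0.00853% of all genes were called. Mcm5 had 0.443 and 2.39 FPKM in normal and 2.96, 18.1 and 7.38 FPKM in PH HSC (1.96 ± 0.82, adjusted p = 0.577). Slbp, with 38.1 and 17.5 FPKM in normal and 20.2, 11.2 and 20.1 FPKM in PH libraries, had the smallest p on the lower side (-0.61, adjusted p = 0.76). Every PH library lay above normal for 3 genes (14.7% of all genes) and below it for 1 (11.7%). The first normal HSC library listed 14 of the 43 genes at 0 and the second PH library 13. Mitosis genes averaged 0.49 on the log2(FPKM + 1) scale in the first normal HSC library and 3.57 in the second. The median difference of the genes tested was 0.16, and it was -0.43 without the first normal library and 0.62 without the second. Mcm2 (0.20), Pcna (0.13), Dnmt1 (0.59), Cdt1 (0.59), E2f1 (-0.76) and Uhrf1 (-0.04) overlapped in HSC.

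**Figure D4:**
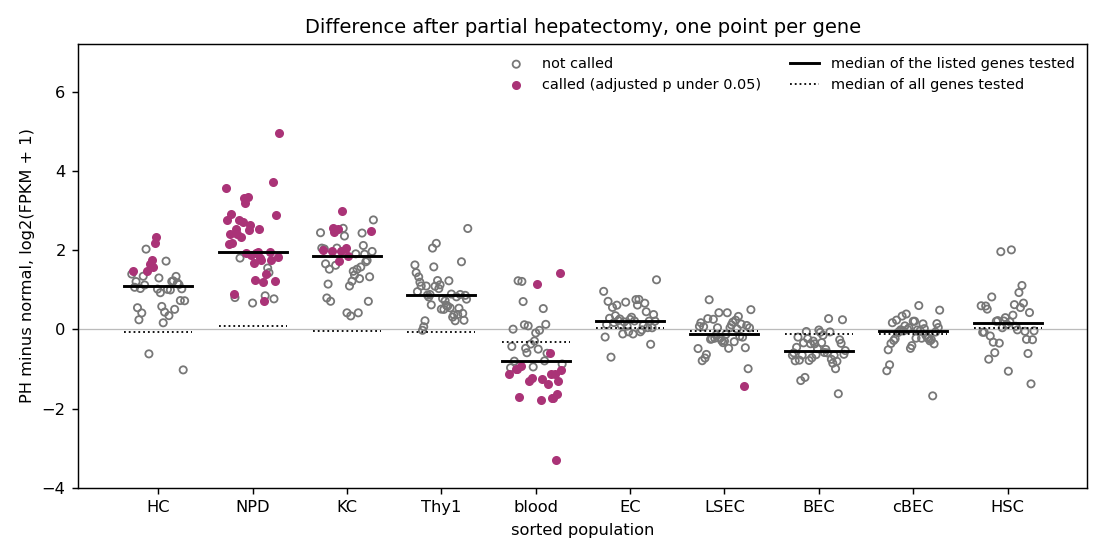
Each point is a gene; the vertical axis is its PH minus normal difference in log2(FPKM + 1), the horizontal axis the population, filled points are called and the thick bars are medians of the genes tested. The medians are 1.94 in NPD, 1.85 in KC, 1.09 in HC and 0.86 in Thy1, and the dotted bars of all genes lie near 0 except in blood.

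Whether the responses differ between populations was tested in a fit of all 20 groups. An F test across the 10 responses was past the threshold for 37 of the 43 genes, against 47.8% of all genes, the exceptions being Orc6, Gins1, Pola1, Pole2, Rfc1 and Rfc3. The response of NPD exceeded that of cBEC for 20 genes (4.56% of all genes called, 3.53% higher) and that of BEC for 25 (5.34% called, 4.19% higher). The largest of these differences were Rrm2 (5.40 over cBEC, 5.35 over BEC), Cdc45 (4.61 and 4.22) and Uhrf1 (4.46 and 5.48). Against HC the NPD response was larger for 8 genes (11.1% called, 7.95% higher): Tk1 (3.91, adjusted p = 0.00717), Mcm10 (3.32), Uhrf1 (3.30), E2f8 (2.11), Pole (1.94), Pola2 (1.77), Mcm2 (1.66) and Dnmt1 (1.64). None of the 43 was called in the other direction in these 3 comparisons. The response of HC exceeded that of LSEC for 6 genes (7.09% called, 2.44% higher), namely Mcm5 (2.13), Chaf1b (2.0), Mcm3 (1.97), Mcm6 (1.92), Lig1 (1.71) and Mcm4 (1.71). These comparisons share the NPD or HC libraries, and Tk1 in HC carries the limit of the exon bases it shares with Afmid.

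All 7 genes called in HC were among the 36 called in NPD (100% of the first list and 19.4% of the second). As 36 of the 43 genes were called in NPD, most members fall in that list whatever their call elsewhere. Overlaps with it, from HC or from KC, are therefore not a sign of agreement. Mcm2, Mcm3, Mcm4, Mcm5 and Cdt1 were called higher in HC, NPD and KC. HC and KC shared 5 genes (71.4% of the HC list and 45.5% of the KC list), and NPD and KC shared 10 (27.8% and 90.9%). Tk1 was called higher in NPD, KC and blood.

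A list of 54 other replication genes, which includes cyclins E and A, further polymerase subunits and fork proteins, was counted in the same way. In HC 2 of 36 tested were called higher, where 1.78% of all genes were: Ccne1, the cyclin that drives entry into S phase, had a mean of 0.525 FPKM in normal and 6.74 FPKM in PH libraries (2.18, adjusted p = 0.00682), and Cdc25a, the phosphatase that activates its kinase, differed by 0.94 (adjusted p = 0.0381). In NPD 28 of 54 were called higher (9.65% of all genes), led by Hells (4.12), a chromatin remodeller of DNA methylation, and Ccne1 (3.60). In KC 9 of 54 were called higher, where 16.7% of all genes were. In blood 2 were called higher (24.3% of all genes) and 28 lower (39.7%), and in BEC 1 lower (1.57%). In LSEC 1 was called higher (4.15%) and 1 lower (4.31%), and in Thy1, EC, HSC and cBEC none.

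Genes of mitosis, the step after S phase and G2, were counted beside these. Of 20 mitosis genes, 6 were called higher in NPD (Top2a, Birc5, Mki67, Plk1, Ttk and Bub1b; 9.65% of all genes), none of 20 in KC and none of 7 tested in HC, with no HC or KC mitosis gene at an unadjusted p under 0.05. They were called lower in LSEC (11 of 17 tested, with Ccnb2 at -2.62, Birc5 at -2.50 and Top2a at -2.28; 4.31% of all genes), in BEC (4 of 16; 1.57%) and in blood (20 of 20; 39.7%). In LSEC the mean of the mitosis genes was 1.96 to 2.72 in normal and 0.70 to 1.24 in PH libraries, while the mean of the 43 replication genes overlapped between the groups. Of 10 G1 genes 2 were called higher in HC, where 1.78% of all genes were. Among them was Ccnd1 at 1.74, with 6.73, 13.0, 15.9 and 7.88 FPKM in normal and 47.2, 21.1, 45.6 and 39.7 FPKM in PH libraries.

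**Figure D5:**
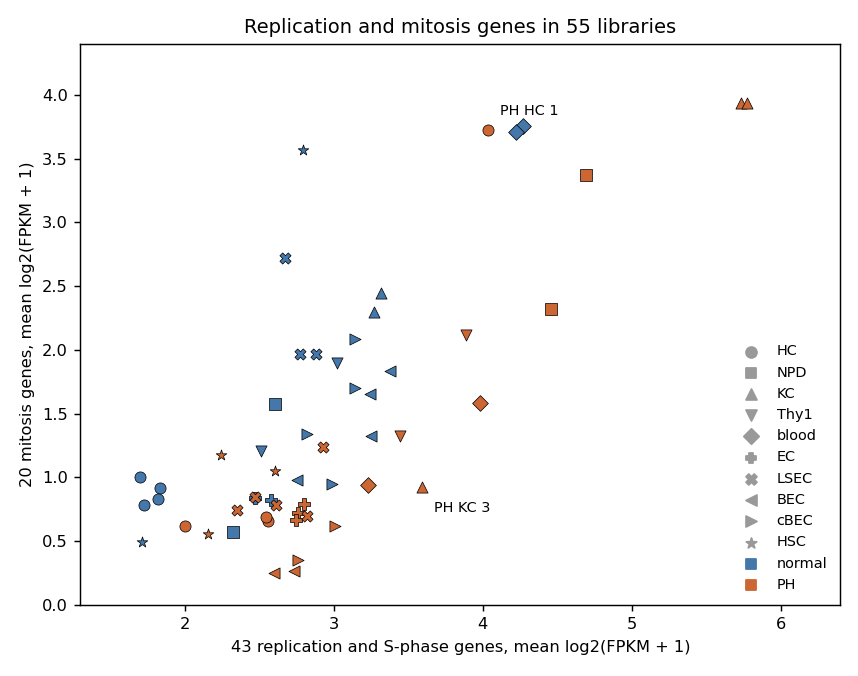
Each symbol is 1 of the 55 libraries, with the mean log2(FPKM + 1) of the 43 replication genes on the horizontal axis and of 20 mitosis genes on the vertical axis; shape gives the population and colour the treatment. The first PH HC library (mitosis 3.72) lies near normal blood, the other PH HC libraries near 0.65, and the third PH KC library (0.92) lies below the other PH KC libraries (3.94).

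Outside the 43 genes, the patterns most like their median across the 20 group means of log2(FPKM + 1) were those of Rad54l (Pearson r = 0.97), Wdhd1 (0.95), Chtf18 (0.94), Exo1 (0.94) and Ercc6l (0.94). Wdhd1, Chtf18 and Exo1 were on the list of other replication genes. The correlations describe groups of 2 to 5 libraries each and carry no test.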

How the data were processed

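The deposited table gives FPKM per RefSeq transcript for the 55 libraries, made by the authors. Per the submitters' processing notes the build was mm9 and the tools included CASAVA 1.8.2 and Bowtie 1.0.0, with roles not given; the program that counted reads and its use of strand are not given in the sources used here. No column of the table was left unmapped. For each of 24478 symbols the row with the highest mean was kept. FPKM was taken as log2(FPKM + 1) and tested with limma 3.58.1 in R 4.3.3 (empirical Bayes with trend and robust settings, two-sided), in each population on genes that reached 1 FPKM in a number of libraries no lower than the size of the smaller group. P-values were adjusted by Benjamini-Hochberg over all genes tested, with a threshold of 0.05. Differences of responses came from a fit of all 20 groups. The scripts were tested on simulated data. Tables and plots used Python 3.11.15, pandas 2.3.3 and matplotlib 3.10.9.

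The members and gene lists were chosen with earlier results of these data known. All 43 members may be named; per population, values in every library were given for the called members with the 6 largest rises and 4 largest falls, or the smallest p in each direction where none was called, and 12 members were described throughout. Of the other replication genes, up to 3 rises called in HC and NPD were named. Mcm10, Orc6, Pola2, Tk1 and Lig1 in normal liver were chosen after their values were seen. Alternatives were a pseudocount of 0.1, no filter, quantile and upper-quartile scaling, the mean over rows, other sets of groups in the fit, a replicate block and leaving out each library; the splits of HC libraries and the HSC fit without the libraries listing over 10 members at 0 were added after the data were seen. Same-numbered libraries did not deviate together (correlations of -0.63 to 0.45), so numbers were not used as pairs.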

Additional observations from a re-analysis of the deposited data

Results flagged for a closer look

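Of 82 values examined in groups of 4 or more libraries, 11 held a library far from the others of its group, where about 1 in 20 is marked by chance (4.1 of 82). The first PH HC library accounts for 9 of them. Its Mcm6 was 66.7 FPKM (6.87 to 13.6 in the other 3 PH libraries), Pcna 93.6 (11.6 to 12.8), Rrm2 43.3 (3.32 to 4.86), Tk1 20.2 (5.33 to 6.43), Slbp 27.1 (4.91 to 6.38) and Cdc6 4.86 (0.25 to 0.93). On the mean log2(FPKM + 1) scale its nucleotide supply genes stood at 4.57 (2.21 to 2.54), its other replication genes at 3.48 (1.95 to 2.15) and its mitosis genes at 3.72 (0.62 to 0.69). Mitosis genes were also apart in the second PH LSEC library at 1.24 (0.70 to 0.84), and the genes of chromatin, histone and methylation maintenance in the third normal BEC library at 2.94 (3.50 to 3.62). These genes share a library, so the marks are not independent.

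Responses to PH that differed between populations by a test of the difference itself were those of NPD against cBEC for 20 genes, NPD against BEC for 25, NPD against HC for 8 and HC against LSEC for 6, and 37 genes differed among the 10 populations by the F test.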

How the results depend on the processing

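Depth is unknown, most groups hold 2 to 4 libraries, and a value listed at 0 may be a failed estimate, so an absent call in EC, HSC, Thy1 or cBEC does not show that levels were alike. Counts below are members called, with the share of all genes tested that was called in parentheses for single populations. The cause of each move was not tested unless said. In HC (7 in the main fit, 6.19%) they were 1 without a filter (2.57%), where more genes were tested, and 15 in a single fit of all groups (13.6%). They were 13 with a term for the division by FPKM sum (21.8%), 20 within the libraries of higher sum (17.1%) and 0 within those of lower sum (1.43%). In KC (11, 36.8%) they were 2 without a filter (22.9%), 24 with quantile scaling (38.5%) and 33 in the single fit (26.9%). NPD (36, 15.2%) had 28 in the single fit (15.0%), so which of KC and NPD has more calls turns with the fit. In LSEC (1, 8.46%) the single fit gave 0 (10.1%) and in blood (21, 64%) 11 (52.4%). It gave 5 in Thy1 (0, 0.00747%), with 13.1%, and 2 in HSC (0, 0.00853%), with 16.5%. In BEC (0, 1.81%) a pseudocount of 0.1 gave 2 (3.74%). For the differences of responses, NPD over cBEC (20) gave 11 with a pseudocount of 0.1, NPD over BEC (25) gave 39 in a fit of 4 groups, NPD over HC (8) gave 5 with a pseudocount of 0.1, 13 with quantile and 5 with upper-quartile scaling, and HC over LSEC (6) gave 10 with upper-quartile scaling.

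A replicate block was also fitted, although the numbers do not pair the libraries. With it the counts were 2 in HC (3.01% of all genes tested), 11 in BEC (7.99%) and 0 in LSEC (0.0261%). They were 43 in KC (55.3%) and 4 in Thy1 (3.62%), against 39 in NPD (19.5%). Libraries whose number is in 1 group only, such as the third PH KC library, add nothing to the difference in that fit. Leaving out 1 library at a time gave 1 to 13 in HC, 0 to 43 in NPD, 0 to 5 in BEC, 0 to 2 in LSEC, 0 to 43 in KC and 1 to 33 in blood, and 0 throughout in cBEC, EC, HSC and Thy1. For the differences of responses it gave 6 to 21 for NPD over cBEC, 12 to 28 for NPD over BEC, 4 to 15 for NPD over HC and 1 to 12 for HC over LSEC. The sign turned for Dut in Thy1 cells, from -0.02 to 0.17 with quantile scaling, 0.022 with upper-quartile scaling, 0.025 without the second normal library and -0.40 to 0.35 over all left-out libraries, and for Slbp in HSC, from -0.61 to 0.19 without the libraries listing over 10 members at 0.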
